A study of Mus musculus with 64 samples.

Results

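Transposon insertions inside Ebf1 were taken from a PiggyBac (PB) and a Sleeping Beauty (SB) screen of diffuse large B cell lymphoma in mice. All insertions between the start and the end of the gene counted, which on mm10 (GRCm38) is chr11:44618100-45008096 on the plus strand. Of the 385883 deposited lines, 309 lay in this stretch, and they held 305 distinct insertions of a sample out of 299594 kept over the genome. The gene was selected on its number of insertions in the tumours of both screens, so its counts in tumours against tails, expected counts and other genes are a description with no test. Strand, reads, position and the differences between organs within the PB tumours did not enter that choice and were tested.

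The data came from 64 samples, 1 per mouse, in 4 groups: tumours (30 PB, 11 SB) and tails (12 PB, 11 SB). The labels give the genotype as IMPB for the PB mice and as IMSB for the SB mice. By the study's methods all mice carried an ITP transposon array, and the transposase was a constitutive knock-in at Rosa26, so that transposition was not limited to B cells. SB mice came from crosses of Rosa26 SB/+ with ITP1-C or ITP2-M, each also Blm m3/m3, and included triple and double transgenic animals that the labels do not tell apart. For the PB mice the labels give no Blm genotype, and the methods refer to an earlier cohort. All mice had a mixed background of C57BL/6, 129Sv and FVB, and no age was given in the sources used here. Tumours were labelled by organ only, and a tail is a tissue of mixed cell types with no B cell tumour. The data are DNA junctions and hold no expression, so the labelled tissue could not be checked against marker genes.

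Ebf1 encodes early B cell factor, a DNA-binding protein that opens chromatin of B-lineage genes in lymphoid progenitors. It works together with Tcf3, Pax5 and Foxo1, and it switches on genes of the pre-B-cell receptor such as Cd79a and Igll1. Without it, B-cell development stops before the pro-B stage. A transposon carrying promoter and splice elements can raise, truncate or break the transcript of a gene it enters, depending on where it lies and which way it points. The DNA data show where transposons lie and do not show which of these took place.

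PB inserts at TTAA and SB at TA. Ebf1 is 389997 bp long, with 16 exons and 15 introns in the RefSeq transcript used here, 2397 TTAA sites and 23271 TA sites, and no other annotated gene overlaps it. The 7 sites printed next had the most reads in a system or lay in at least 3 tumours, and each is read on the plus strand of GRCm38 with the motif in capitals.
PB site in intron 4, chr11:44623970-44624009: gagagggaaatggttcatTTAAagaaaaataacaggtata
PB site in intron 6, chr11:44656143-44656182: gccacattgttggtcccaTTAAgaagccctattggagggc
PB site in intron 6, chr11:44774630-44774669: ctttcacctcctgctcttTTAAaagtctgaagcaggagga
PB site in intron 6, chr11:44775336-44775375: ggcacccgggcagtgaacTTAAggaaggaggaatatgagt
PB site in intron 10, chr11:44944643-44944682: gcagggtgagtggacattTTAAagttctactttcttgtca
SB site in intron 4, chr11:44631442-44631479: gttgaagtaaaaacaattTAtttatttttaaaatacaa
SB site in intron 6, chr11:44848257-44848294: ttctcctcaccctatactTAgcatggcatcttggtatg

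The bases beside the motif differed between the systems. Of the 53 distinct SB sites used in tumours, 77.4% had A as the third base before TA, against 31.0% of all TA sites of the gene. T was the third base after TA at 69.8% of them, against 33.3% of all sites, and both bases were present at 52.8%, against 10.9%. Both printed SB sites carry the A, and the intron 4 site also carries the T. Of the 189 distinct PB tumour sites, 43.4% had T as the third base before TTAA, against 33.5% of all TTAA sites of the gene. A was the third base after TTAA at 42.9% of them, against 32.1%. In tails the 9 SB sites had the A at 77.8%, and the 20 PB sites had the T at 30.0%. These shares describe sites of this gene and were not tested.

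Ebf1 insertions were found in 25 of 30 PB tumours and 8 of 11 SB tumours, against 11 of 12 PB tails and 5 of 11 SB tails. PB tumours held 219 of them, a mean of 7.30 ± 8.43 per tumour (SD, n = 30), and PB tails 20, a mean of 1.67 ± 1.23 (SD, n = 12). SB tumours held 57, a mean of 5.18 ± 8.46 (SD, n = 11), and SB tails 9, a mean of 0.818 ± 1.25 (SD, n = 11). Tumours of both systems thus reached far higher counts than tails, yet the groups overlapped at the low end.

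Counts depend on how many insertions a sample yielded, which ranged from 756 to 10800 in PB tumours and from 760 to 8786 in SB tumours, and in tails from 2035 to 7362 (PB) and from 2537 to 7148 (SB). Per 1000 kept insertions of the sample, PB tumours ranged from 0 to 4.88 with a median of 0.988, and PB tails from 0 to 1.52 with a median of 0.387. SB tumours ranged from 0 to 6.26 with a median of 0.621, and SB tails from 0 to 0.888 with a median of 0. The count expected from the gene's share of the motif sites of its chromosome was 39.0 for PB tumours and 9.87 for PB tails, and the observed counts were 5.61 and 2.03 times these. For SB tumours it was 7.82 and for SB tails 8.62, and the observed counts were 7.29 and 1.04 times these. The expected count of a single sample was low, from 0.141 to 2.86 in PB tumours and from 0.0812 to 1.75 in SB tumours, so that 1 insertion could already exceed it.

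**Figure D1:**
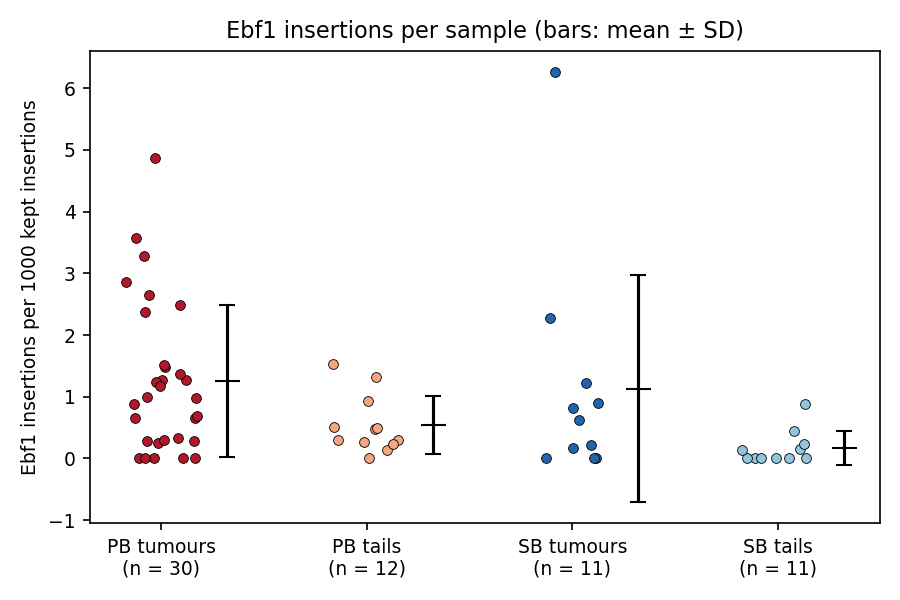
Ebf1 insertions per 1000 kept insertions of each sample, by group (points: samples; bars: mean ± SD). PB tumours reach 4.88 and SB tumours 6.26, while no PB tail is above 1.52 and no SB tail above 0.888, and each group holds samples at 0.

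The insertions were spread unevenly over tumours. PB tumour 8, labelled LN, had 34, and PB tumour 20, labelled MES MASS, had 31, which together made 29.7% of the PB tumour insertions. The next were PB tumour 22 with 16, PB tumour 21 with 14, and PB tumours 10 and 11 with 13 each. PB tumours 14, 18, 19, 25 and 28 had none, which allows up to between 0.5 and 1.95 per 1000 (3 insertions of the sample's total). At least 5 insertions were found in 17 PB tumours and 2 SB tumours and in 0 tails.

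Most SB tumour insertions came from 2 tumours. SB tumour 2, labelled SI MASS, had 24 insertions and SB tumour 11 (MES MASS) had 20, together 77.2% of all. SB tumour 3 had 4, SB tumour 1 had 3, SB tumours 4 and 9 had 2 each, SB tumours 5 and 6 had 1 each, and SB tumours 7, 8 and 10 had none, which allows up to between 0.800 and 3.95 per 1000. Without SB tumours 2 and 11 the SB mean was 1.44 per tumour, and without PB tumours 8 and 20 the PB mean was 5.50. The rate was 6.26 per 1000 in SB tumour 2 (95% Wilson interval 4.21 to 9.30), 2.28 in SB tumour 11 (1.47 to 3.51), 4.88 in PB tumour 8 (3.49 to 6.80) and 3.29 in PB tumour 20 (2.32 to 4.66). Intervals and upper limits cover counting error only, and those on insertions treat the insertions of a sample as independent. The intervals on shares of reads given below treat reads as independent, but reads from PCR without molecular identifiers are not independent molecules. Against their expected counts, PB tumour 8 had 18.7 times and SB tumour 2 had 28.04 times as many.

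Beside other genes, Ebf1 had the highest count of the 566 genes with at least 30 insertions in PB tumours and ranked 6 of 41 such genes in SB tumours. By the ratio of observed to expected it ranked 78 in PB and 6 in SB. The share of the 2 most hit tumours was 21.95% for the median PB gene, and 46 genes (8.13%) had a higher share than Ebf1. In SB the median gene had 42.1%, and 3 genes (7.32%) were above Ebf1.

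The Ebf1 count moved with the number of kept insertions, of which it is a part, so this is given as a description. Over the 30 PB tumours Pearson's r was 0.583 and Spearman's rho 0.686, and without the 2 tumours farthest from the median number of kept insertions r was 0.647 and rho 0.678. Over the 11 SB tumours r was 0.489 and rho 0.447, and without the 2 farthest r was 0.0292 and rho 0.118.

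Along the gene, the insertions lay in introns with 4 exceptions, all in the last exon, exon 16. Intron 6 runs over 225622 bp, 57.9% of the gene, and held 152 of the PB tumour insertions (69.4%, in 22 tumours) and 37 of the SB ones (64.9%, in 7 tumours). Pooled over tumours, the systems differed in where the insertions lay within it, which was not tested. In PB tumours, 96 insertions (43.8%, in 20 tumours) were in the 5′ part of intron 6, up to its midpoint, which holds 30.0% of the gene's TTAA sites. The 3′ part held 56 (25.6%) with 26.7% of sites. The stretch after intron 6 also held 56 (25.6%), but with 37.1% of sites. In SB tumours the 5′ part held 12 insertions (21.1%) with 29.4% of TA sites, and the 3′ part held 25 (43.9%) with 28.2%. Since SB tumours 2 and 11 supplied 44 of the 57 insertions, the SB pattern is largely theirs.

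**Figure D2:**
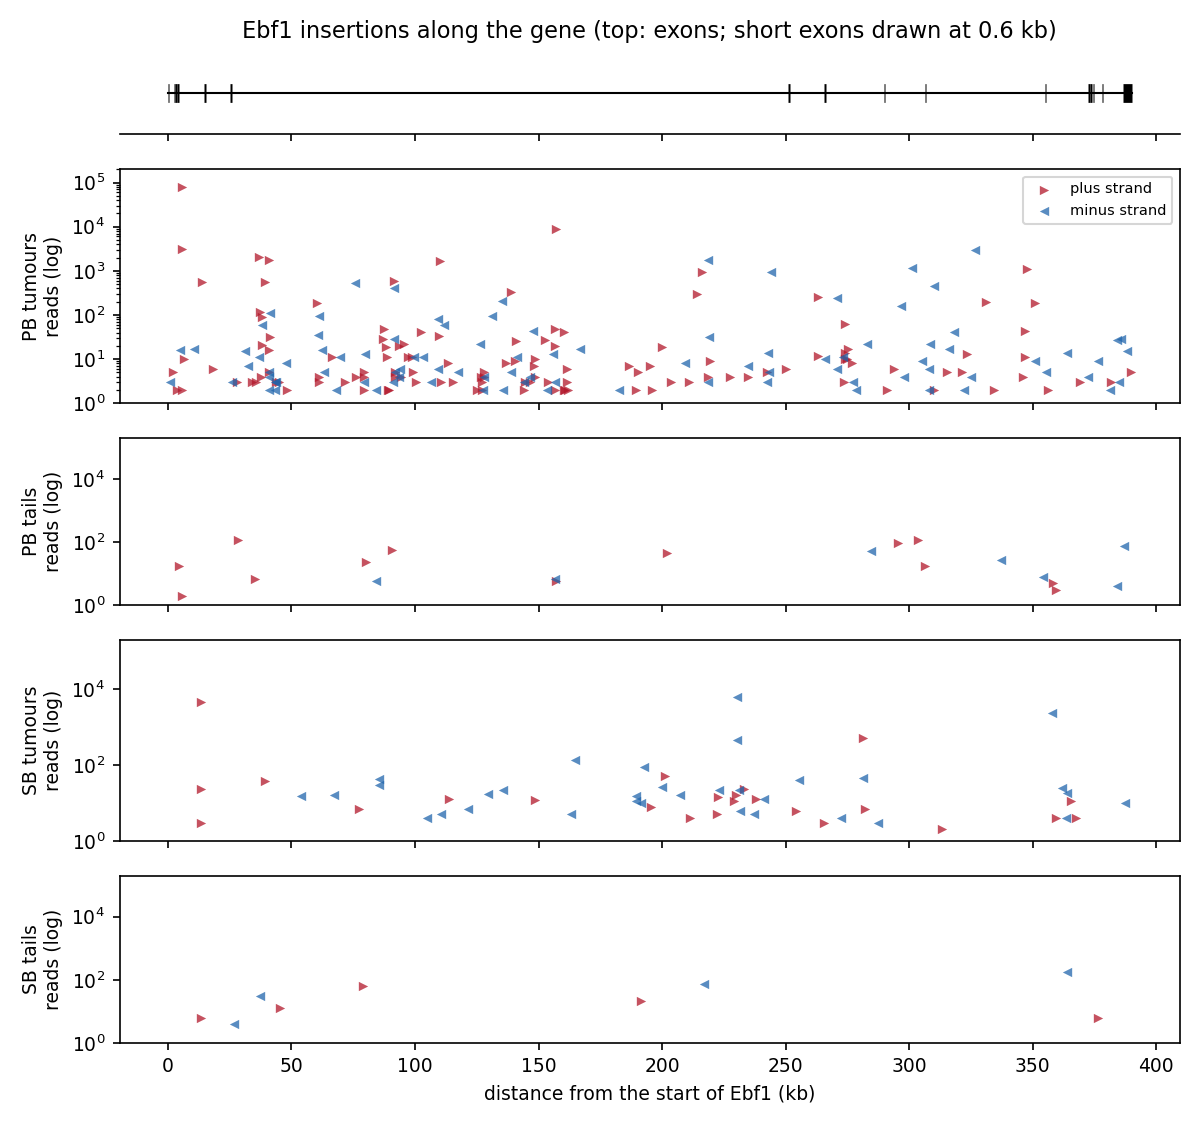
Each Ebf1 insertion by its distance from the start of the gene (kb) and its reads (log axis), in the 4 groups, with plus-strand insertions pointing right and minus-strand insertions left; exons are drawn above. Insertions above 1000 reads lie only in tumours, and the long gap between exons 6 and 7 is intron 6.

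In windows of 10 kb, PB tumour insertions were most frequent between 90 and 100 kb from the gene's start, with 16 in 10 tumours against 5.94 if the gene's insertions followed its TTAA sites. The window from 40 to 50 kb held 15 in 9 tumours. Those from 30 to 40, from 140 to 150 and from 270 to 280 kb held 12 each, in 8, 9 and 8 tumours. No PB tumour insertion lay between 50 and 60 kb or between 170 and 180 kb. The SB window with the highest count, from 230 to 240 kb, held 7 in 3 tumours, and the 5 between 220 and 230 kb all came from 1 tumour. The 5 PB windows named gathered insertions of 8 to 10 tumours each, and both SB windows those of 3 or fewer.

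**Figure D3:**
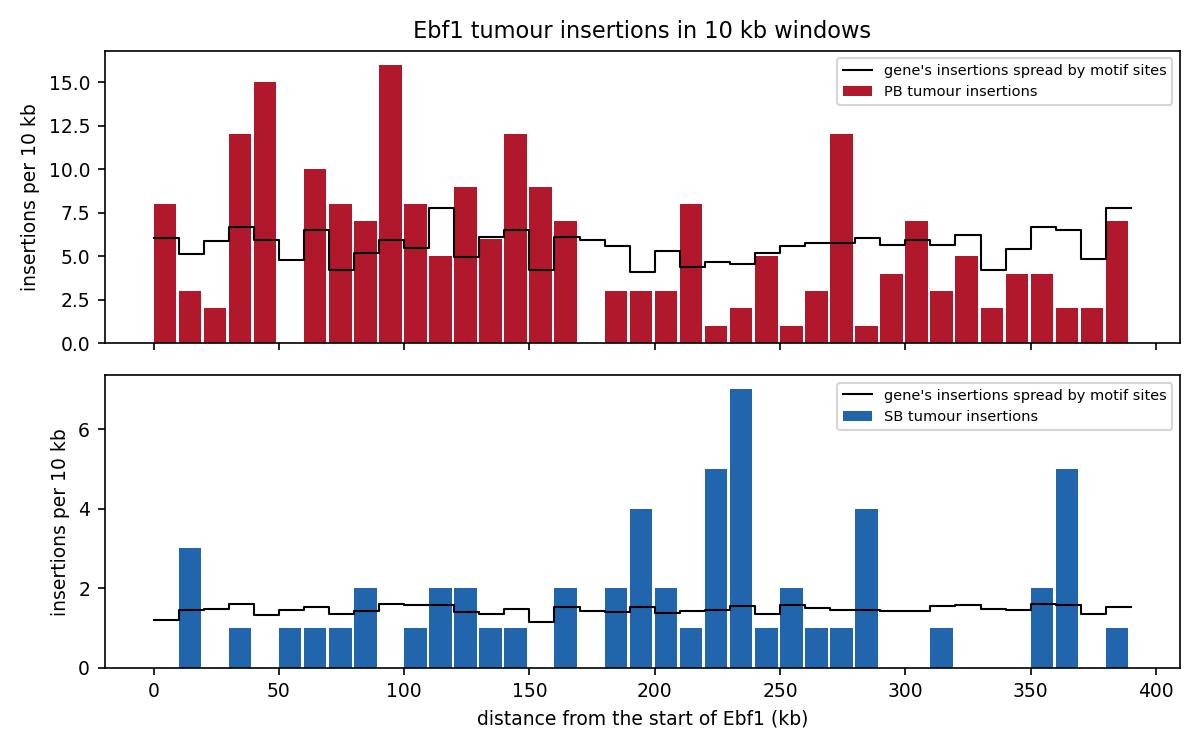
Ebf1 tumour insertions per window of 10 kb (bars) by distance from the gene's start (kb), with the black line giving the insertions of the gene spread by its motif sites. The PB maximum is 16 at 90 to 100 kb and the SB maximum is 7 at 230 to 240 kb.

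The mean position per sample, in percent of the gene's length, was 45.0 ± 16.7 in PB tumours (SD, n = 25) and 47.3 ± 35.1 in PB tails (SD, n = 11), against 50.3 for all TTAA sites. Tumours and tails did not differ beyond the spread between samples (two-sided permutation test, difference -2.32, p = 0.791, adjusted p = 0.791). In SB it was 48.7 ± 16.9 in tumours (SD, n = 8) and 36.2 ± 26.4 in tails (SD, n = 5), a difference of 12.6 that also did not pass (exact permutation p = 0.312, adjusted p = 0.623). PB and SB tumours differed by -3.73 (exact permutation p = 0.598). These tests took the mean position over the whole gene, so the different weight on the 5′ and 3′ parts of intron 6 was not itself tested.

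Stretches of equal length on either side held fewer insertions. Per 1000 motif sites, PB tumours had 91.4 in Ebf1, 29.8 upstream and 10.2 downstream, and PB tails had 8.34, 3.85 and 3.82. SB tumours had 2.45 in Ebf1, 0.406 upstream and 0.754 downstream, and SB tails had 0.387, 0.226 and 0.159. The gene exceeded both flanks in all 4 groups, tails included.

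The strand given for an insertion is that of the deposited table, whose relation to the transposon's direction is not given in the sources used here. In PB tumours 125 Ebf1 insertions were on the plus strand, the strand of the gene, and 94 on the minus strand, which is 57.1% plus against 49.97% of all kept insertions. Plus outnumbered minus in 16 tumours, minus outnumbered plus in 8, and 1 was even. The mean difference of plus minus minus was 1.24 ± 3.19 per tumour (SD, n = 25), which did not pass (sign-flip permutation p = 0.0737, adjusted p = 0.147). Of the 25 tumours left out in turn, only PB tumour 10, with 3 plus and 10 minus, changed this (1.58, adjusted permutation p = 0.0213). With insertions of at least 10 reads the difference fell to 0.261 (n = 23, adjusted sign-flip permutation p = 0.601). Counting only the sign of each tumour's difference, the mean was 0.32 (n = 25, adjusted sign-flip permutation p = 0.302). In SB tumours 24 were plus and 33 minus, a mean difference of -1.13 ± 3.04 (SD, n = 8, exact permutation p = 0.5). SB tumour 2 alone had 8 plus and 16 minus, and the difference ran from -1.57 to -0.143 when each tumour was left out. PB tails had 13 plus and 7 minus, SB tails 5 and 4.

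Most Ebf1 insertions had few reads, and a small number had very many. Reads at a junction reflect how many cells of the sample carry the insertion, but also how well the junction amplifies. The median was 6 reads in PB tumours, equal to that of all kept PB tumour insertions, and 13 in SB tumours, again equal to that of all kept ones. In tails the median was 17.5 in PB, against 21 over all kept, and 21 in SB, against 19. At least 1000 reads were found at 10 Ebf1 insertions of PB tumours, 4.57% of them against 0.525% of all kept ones. In SB tumours there were 3, which is 5.26% against 0.148%, and in tails there were 0.

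Among the insertions ranked in the top 10 of their sample by reads, 6 of 302 in PB tumours lay in Ebf1 (1.99%), while the gene held 0.140% of all kept insertions. In SB tumours 4 of 110 did (3.64%, against 0.130%), and none of the 122 of PB tails or the 110 of SB tails. The 6 PB insertions came from 6 tumours and the 4 SB insertions from 3. These shares describe insertions and were not tested.

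The insertion with the most reads in Ebf1 was the intron 4 site printed first, with 81026 reads in PB tumour 3, a spleen. It stood at rank 18 there. This library had 5721832 reads on its kept insertions, against a median of 136579 in PB tumours, and the insertion took 1.42% of them (95% Wilson interval 1.41% to 1.43%). The same TTAA was hit on the same strand in PB tumour 23, with 3190 reads and rank 10, and with 2 reads each in PB tumour 2 and PB tail 5. PB tumour 30 had 8907 reads at the second of the adjacent pair of printed sites, motif start 44775354, on the plus strand in intron 6, with rank 5 and 2.82% of its reads (2.77% to 2.88%). PB tail 9 had 6 reads there. PB tumour 21 had 3029 reads at the printed intron 10 site, on the minus strand, with rank 5 and 2.87% of its reads (2.77% to 2.97%).

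In SB, tumour 2 had 6213 reads at the printed intron 6 site, on the minus strand, with rank 3 and 5.81% of its reads (95% Wilson interval 5.67% to 5.95%). SB tumour 3 had 457 reads at the same base and strand, with rank 14. SB tumour 4 had 4607 reads at the printed intron 4 site, on the plus strand, with rank 3 and 4.54% of its reads (4.41% to 4.67%). SB tumours 11 and 1 and SB tail 5 had 23, 3 and 6 reads there, on the same strand. SB tumour 11 had 2369 reads at 44975989 on the minus strand in intron 11, with rank 3 and 2.60% of its reads (2.50% to 2.70%). The 3 SB tumours with such an insertion thus include the 2 with the highest counts.

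By contrast, PB tumour 8, with the highest count of all, had at most 206 reads at any of its 34 insertions, and its best rank was 107. PB tumour 20 had 1137 reads and rank 32 at the best of its 31. Both tumours thus had many insertions and none within the top 10 of the sample.

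Over all its insertions, a sample's mean read percentile for Ebf1 among its kept insertions was 57.1 ± 21.4 in PB tumours (SD, n = 25), from 5.99 to 97.7, and above 50 in 18 of 25. It did not differ from 50 (sign-flip permutation p = 0.111, adjusted p = 0.111). In SB tumours it was 59.1 ± 12.6 (SD, n = 8) and above 50 in 6 of 8 (exact permutation p = 0.0625, adjusted p = 0.111). PB tails had 44.7 ± 27.9 (SD, n = 11), 12.4 lower than tumours (permutation p = 0.154, adjusted p = 0.309), and SB tails 56.0 ± 28.5 (SD, n = 5), 3.05 lower (exact permutation p = 0.796, adjusted p = 0.796). With positions of 1 sample only, tumours minus tails was -2.30 in PB (n = 24 and 9, adjusted exact permutation p = 0.814). In SB it was then -3.66 (n = 8 and 5, adjusted exact permutation p = 0.814).

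**Figure D4:**
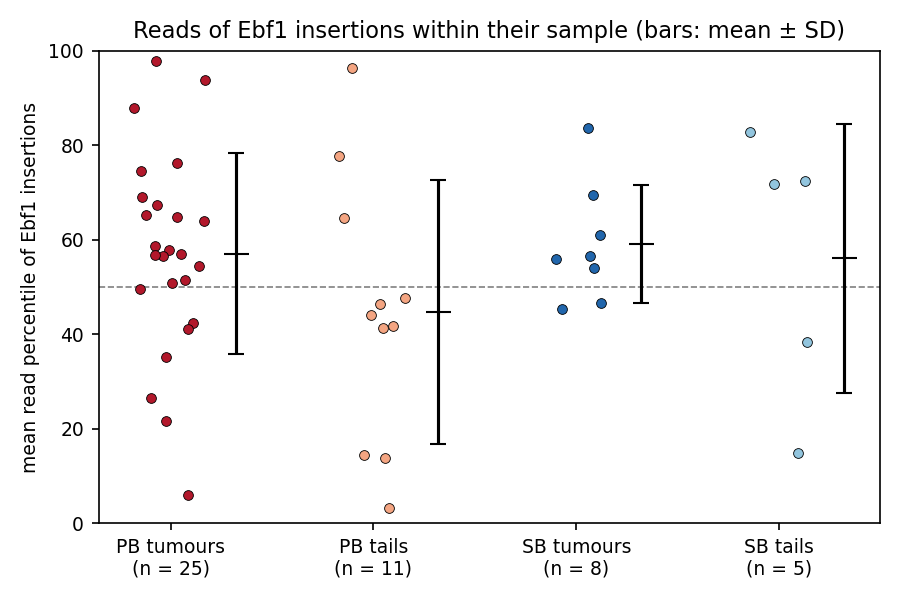
Mean percentile of the reads of a sample's Ebf1 insertions among all its kept insertions, for samples with an Ebf1 insertion (points: samples; bars: mean ± SD; dashed line: 50). PB tumours spread from 5.99 to 97.7, and 18 of 25 lie above the line.

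On a log2 scale, which keeps the size of high values, the result differed. The reads of Ebf1 insertions lay 0.899 log2 units above the sample's median in PB tumours (SD 1.26, n = 25, sign-flip permutation p = 0.00165, adjusted p = 0.0033). All kept insertions of the same tumours averaged 0.0501 above it. PB tails lay 1.05 below their median, and tumours exceeded tails by 1.94 (permutation p = 0.00042, adjusted p = 0.00084). All kept insertions of those tails averaged 0.472 below, and relative to that mean the difference between tumours and tails was 1.42 (permutation p = 0.00553, adjusted p = 0.0111). In SB tumours Ebf1 insertions lay 0.730 above the sample's median, which did not pass (n = 8, exact permutation p = 0.0703, adjusted p = 0.0703), and SB tumours exceeded tails by 0.868 (exact permutation p = 0.174). They lay 0.925 above the mean log2 reads of the sample (SD 1.02, n = 8, exact permutation p = 0.0313, adjusted p = 0.0313), and by that measure SB tumours exceeded tails by 0.677 (exact permutation p = 0.308). The comparisons with the sample's mean were chosen once the data were known. No log2 comparison was run on positions of 1 sample only.

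The form of the sample name moved with the read values. Some names write the genotype code and the next number together and others set them apart, and what this stands for is not given in the sources used here. The 6 PB tumours with an Ebf1 insertion and a separated name had a mean percentile of 76.3 (exact permutation p = 0.0313, the smallest that 6 samples allow), and the 19 with a joined name 51.0 (permutation p = 0.818). Relative to the sample's mean log2 reads the values were 2.14 and 0.443 (exact permutation p = 0.0313 and permutation p = 0.0871). Tumours exceeded tails by 2.60 among separated names (exact permutation p = 0.00866) and by 1.14 among joined ones (exact permutation p = 0.0716). All 11 SB tumours had joined names, while 4 SB tails had separated ones. Among joined names, SB tumours exceeded SB tails by 17.4 in mean percentile (n = 8 and 3, exact permutation p = 0.182). Relative to the sample's mean log2 reads they exceeded them by 1.29 (exact permutation p = 0.121).

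Several sites were listed in more than 1 sample. Of 205 distinct PB positions in Ebf1, 28 (13.7%) were, against 4.30% of all kept PB positions, and of 61 SB positions 3 (4.92%) were, against 0.572%. These shares are not corrected for the number of insertions per motif site, which in tumours of both systems was high in Ebf1. The printed intron 6 site with motif start 44774648 was hit in 4 PB tumours and 1 PB tail with 2 to 49 reads, on both strands, and that at 44656161 in 3 PB tumours with 21 to 90 reads, on both strands. All samples at a position had the same strand at 11 of the 28 PB and all 3 SB positions. The highest count there was at least 100 times the next at 6 PB positions and 1 SB position.

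Samples that shared an Ebf1 insertion on 1 strand differed in how many positions and strands they shared over the genome. SB tumours 2 and 3 had 45 in common, 2 of them in Ebf1, where the median pair of SB samples had 2, and 1 of 231 pairs had more. PB tumours 3 and 23 had 35 in common, against a median of 5, and 8 of 861 pairs had more. At the same intron 4 site, however, PB tumour 23 had only 2 in common with PB tumour 2 and 2 with PB tail 5. SB tumour 4 shared 21 with SB tumour 11 and 25 with SB tail 5. SB tail 5 shared 39 with SB tumour 11, and 4 of 231 pairs had more. PB tail 9 shared 43 with PB tumour 30, and 4 of 861 pairs had more. Whether such insertions were carried over between libraries was not tested. When each position and strand was credited once, to the sample with the most reads, PB tumours kept 205 insertions and SB tumours 53, and PB tails 17 and SB tails 8, or 1.35, 1.22, 0.361 and 0.158 per 1000 kept.

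Among PB tumours, those labelled SPLEEN had few Ebf1 insertions. The 6 spleens had 0 to 7 insertions, with a median of 0.5, and 0.209 ± 0.262 per 1000 kept insertions (SD, n = 6). Spleen is an organ rich in mature B cells. The 9 tumours labelled MES MASS had 1 to 31, with a median of 6, and 1.82 ± 1.02 per 1000 (SD, n = 9), and every one was hit. The 6 labelled MES LN had 0 to 16, with a median of 2.5, and 0.781 ± 0.935 per 1000 (SD, n = 6). The highest spleen, at 0.648, lay above the lowest MES MASS, at 0.295, so the groups overlapped.

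Of the 3 pairs of organs compared, SPLEEN and MES MASS differed, by -1.61 per 1000 (two-sided exact permutation p = 0.0030, adjusted p = 0.0090). SPLEEN and MES LN differed by -0.572 (exact permutation p = 0.216, adjusted p = 0.216), and MES MASS and MES LN by 1.04 (exact permutation p = 0.0687, adjusted p = 0.103). The last passed without PB tumour 22 (1.36, adjusted exact permutation p = 0.0322) or without PB tumour 27 (1.23, adjusted p = 0.0495). Among joined names the difference between SPLEEN and MES MASS was -1.90 (n = 4 and 7, adjusted exact permutation p = 0.0182), and among separated names it was -0.570 (n = 2 and 2, exact permutation p = 0.667, where 0.333 is the smallest possible). It did not pass with insertions of at least 10 reads (-2.48, adjusted exact permutation p = 0.111) or as insertions per sample (-8.06, adjusted p = 0.120).

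**Figure D5:**
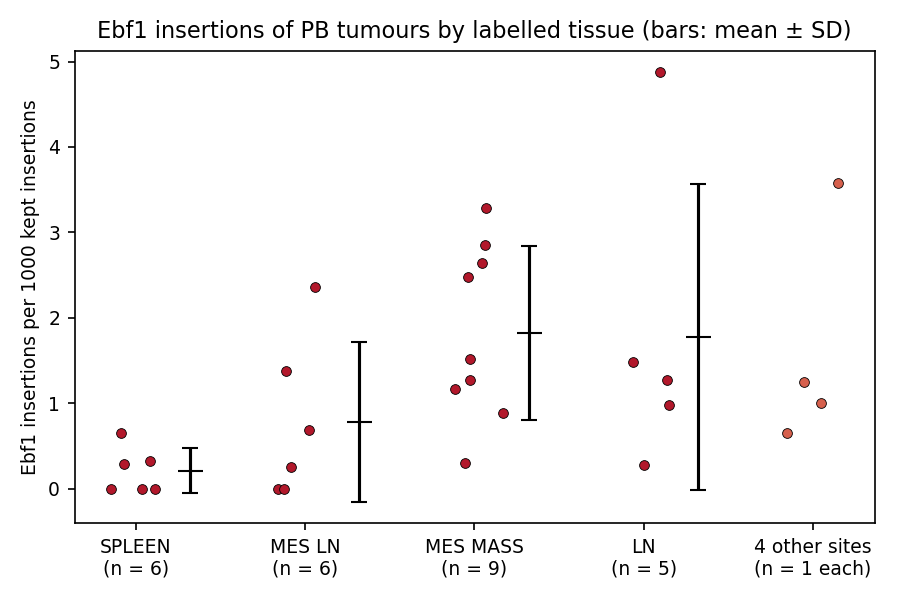
Ebf1 insertions per 1000 kept insertions of the 30 PB tumours by labelled tissue (points: tumours; bars: mean ± SD where n is above 1). No spleen is above 0.648, and 8 of the 9 MES MASS tumours are.

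The 5 tumours labelled LN had 0.278 to 4.88 per 1000, the highest being PB tumour 8. Tissues with 1 PB tumour each had 3.57 (THOR LN), 1.24 (CERV LN), 0.998 (LN THROAT) and 0.648 (CERV MASS). In SB the SI MASS had 6.26, the 2 MES MASS a mean of 1.45, the PROX SI 1.22, the 3 SPLEEN 0.424 and the 2 MES LN 0.412. The THYMUS and the LN SAL GL had 0 insertions.

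Insertions in other genes of the B-cell programme around Ebf1 were counted for a list of 40 genes, of which 38 lay on kept chromosomes. The list was chosen with earlier results of these data known, so its calls are not independent of that choice. Its share of calls beside that of all genes is therefore a description only. With edgeR's quasi-likelihood test of insertions in tumours against tails over all genes with at least 10, Benjamini-Hochberg adjusted, 19 list genes other than Ebf1 were tested in PB and 7 in SB. In PB 3 were higher in tumours, where 2.08% of all 3695 genes tested were. In SB 1 was, where 0.59% of 1187 were. None was lower, where 2.3% and 0.168% of all genes were, nor was any at an unadjusted p under 0.05 or by DESeq2. For Ebf1 itself the same fit gave a log2 difference of 1.54 (SE 0.341) in PB and 2.62 (SE 0.501) in SB, as a description.

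Ikzf1, a zinc finger factor of lymphoid progenitors, had 108 insertions in 23 PB tumours and 3 in tails (log2 difference 2.97, SE 0.563, edgeR adjusted p = 5.03e-05). Its relative Ikzf3 had 82 in 23 PB tumours and 1 in tails (3.53, SE 0.673, adjusted p = 5.27e-05). Mef2c, a MADS-box factor that acts in B cells, had 183 in 29 PB tumours and 13 in tails (1.92, SE 0.388, adjusted p = 0.000178). In SB, Cbfb, the partner subunit of RUNX factors, had 31 in 5 tumours and 2 in tails (3.43, SE 0.654, adjusted p = 4.38e-05), and DESeq2 did not call it. In PB, Cbfb had a log2 difference of 1.07 (adjusted p = 0.407).

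The list groups some genes as partners or inputs of Ebf1. Of these, Foxo1 had 36 tumour insertions in PB and did not pass (log2 difference 1.95, edgeR adjusted p = 0.065). Nor did Pax5, with 24 (1.41, adjusted p = 0.211), or Runx1, with 62 (0.72, adjusted p = 0.419). Tcf12, an E protein, had 83 (0.41, adjusted p = 0.603) and Bcl11a 33 (0.03, adjusted p = 0.984), and neither passed. Erg, an ETS factor, had 10 (0.41, adjusted p = 0.809). Tcf3, with 3 tumour insertions, was under the minimum. Among factors of later B cells, Pou2f1 had 71 (1.46, adjusted p = 0.0711), its coactivator Pou2af1 25 (2.0, adjusted p = 0.0826) and Bach2 69 (0.14, adjusted p = 0.900). Foxo1 and Pou2f1 were called higher in PB tumours by edgeR with TMM and by DESeq2. Pou2af1 was called with TMM and, like Pou2f1, by edgeR with at least 10 reads. Prdm1, the factor of plasma cells, had 14 (-0.40, adjusted p = 0.772). The inhibitors of Ebf1 Zfp521 and Zfp423 had 27 and 10 tumour insertions, with log2 differences of -0.55 (adjusted p = 0.562) and -0.53 (adjusted p = 0.684). The paralog Ebf3 had 9 tumour insertions (-0.63, adjusted p = 0.602) and Ebf4 had 3.

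Targets of Ebf1 held few insertions. In PB tumours Cd79a, Cd79b and Igll1 had 1 each, and Vpreb1, Rag1 and Rag2 had 0. These counts are not corrected for the number of TTAA sites of each gene. Blnk, an adaptor of B-cell receptor signalling, had 14 (log2 difference 0.76, edgeR adjusted p = 0.562). In SB, Mef2c had 18 tumour insertions (1.67, adjusted p = 0.217), Runx1 15 (0.81, adjusted p = 0.729) and Tcf12 13 (0.14, adjusted p = 0.933).

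The genes whose rate per 1000 over the 30 PB tumours was most like that of Ebf1 were found among 565 genes with at least 30 PB tumour insertions, whose median Spearman correlation with Ebf1 was 0.02. They were Basp1 (0.69, 82 insertions in 20 tumours), Rel (0.66, 38 in 15 tumours), Tmem131l (0.62, 62 in 20), Nek7 (0.61, 60 in 18) and Lrrc4c (0.58, 37 in 20). The points share libraries and their depth. Over the 11 SB tumours the same 5 genes gave 0.26, 0.26, -0.39, 0.10 and 0.18. Of the list, Ikzf3 came highest at 0.44 (rank 21), followed by Pou2f1 at 0.23, Mef2c at 0.23 and Ikzf1 at 0.22, while Foxo1, Bach2 and Runx1 were at -0.11, -0.12 and -0.18.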

How the data were processed

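Splinkerette PCR junctions of both transposon ends were sequenced on a MiSeq (75 bp, paired-end). The authors deposited raw read counts per insertion, on mm10, with no line under 2 reads. The aligner, insertion caller and read filters are not given in the sources used here, so their effect on low-read insertions is unknown. A further per-sample column (1 column), reads divided by the sample's highest, was not used. Positions were moved to the nearest TTAA or TA within 5 bp and counted once per sample, with the reads summed. Sex chromosomes and the donor chromosome 14 were left out, and with it Ebf2 and Blk of the list. Genes were those of RefSeq on GRCm38, which also gave the sequences printed. Kept reads per sample ranged from 60538 to 5721832 in PB tumours and 56871 to 162837 in SB tumours, and in tails from 71232 to 193314 (PB) and 55502 to 369482 (SB).

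Strand and read rank were tested over samples with two-sided sign-flip tests, and groups with permutation tests of means (100000 resamples, exact where a group had fewer than 10 samples), Benjamini-Hochberg adjusted within each family at 0.05. P-values measure the spread between these samples. The edgeR fit took each sample's kept insertions as library size and genes with at least 10 insertions. On simulated data with 200 genes changed 4-fold it recovered 75 of the PB genes (3 false calls, 3296 genes) and 90 of the SB genes (2 false calls, 1001 genes). The simulated counts had the same dispersion in every gene, which was not estimated from these data. The false calls of the real fit may therefore differ.

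The gene and the lists were chosen with earlier results of these data known. Genes named are Ebf1, list genes with at least 10 tumour insertions in a system or called, and the 5 genes most like Ebf1 over PB tumours. Other list genes were named after their values were seen. A gene of the list is not reported here. Alternatives covered reads, shared positions, samples, measures, normalization and tool. Models were fitted in R 4.3.3 (limma 3.58.1, DESeq2 1.42.0, edgeR 4.0.16), and all else was computed in Python 3.11.15 (scipy 1.17.1, pandas 2.3.3, numpy 2.4.6, matplotlib 3.10.9).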

Additional observations from a re-analysis of the deposited data

Results flagged for a closer look

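In 10 groups of 4 to 10 samples, the highest and lowest values were compared with their neighbours, and chance alone flags about 1 in 20 groups. PB tumour 8 stood apart among the 5 PB tumours labelled LN, with 4.875 Ebf1 insertions per 1000 kept against 0.278 to 1.48 in the others. SB tumour 2 stood apart among the 8 SB tumours with an Ebf1 insertion, with a difference of plus minus minus strand of -8, against -2 to 2 in the others.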

How the results depend on the processing

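The difference between SPLEEN and MES MASS kept its direction but not its call with at least 10 reads (-2.48) and as insertions per sample (-8.06). The PB read rank passed on log2 reads, at 0.899 against the sample's median and 0.849 against its mean, as did PB tumours against tails, at 1.94 and 1.42, and SB read rank against the mean, at 0.925, but not against the median, at 0.730. SB tumours against tails did not pass on either, at 0.868 and 0.677. On read percentiles at positions of 1 sample only, tumours against tails changed direction, to -2.30 in PB and -3.66 in SB, and did not pass. Of the list genes in PB, edgeR with TMM called 6 higher in tumours, DESeq2 5 and edgeR with at least 10 reads 5, and DESeq2 called 0 in SB. Leaving out each sample in turn, the PB strand difference ran from 0.958 to 1.58, passing only without PB tumour 10, and MES MASS against MES LN from 0.859 to 1.36, passing only without PB tumour 22 or 27. No other call changed on leaving out a sample, with SPLEEN against MES MASS from -1.80 to -1.43, SPLEEN against MES LN from -0.728 to -0.255, and the SB strand difference from -1.57 to -0.143. PB read rank minus 50 ran from 5.38 to 9.20 and SB from 5.57 to 11.0, and tumours against tails from 8.26 to 17.6 in PB and from -7.24 to 9.74 in SB. Position differences ran from -6.90 to 2.87 in PB, from 5.24 to 22.2 in SB and from -8.53 to -1.34 between systems. Over all PB genes 77 were called higher and 85 lower, against 138 and 51 with TMM, 73 and 17 with DESeq2, 20 and 56 with no filter, 70 and 55 with at least 10 reads and 48 and 61 with the form of name as covariate. The median log2 difference of all PB genes was 0.19, and 0.39 with TMM and 0.40 with DESeq2, where Ebf1 was at 1.83 and 2.08. In SB 7 were called higher, and 1 by DESeq2, with medians of 0.01, -0.19 with TMM and -0.23 with DESeq2, where Ebf1 was at 2.39 and 2.52. No paired analysis was possible because the labels give no replicate numbers and each mouse gave 1 sample. A tumour with 1541 kept insertions could hold up to 1.95 per 1000 and show none.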
